A study of Mus musculus with 40 samples.

Results

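The lungs of AJ mice were compared 24 h after aspiration of allergen and 24 h after aspiration of phosphate-buffered saline (PBS) alone, with 10 of the 40 arrays in the series. The arrays were chosen by their titles, which carry AJ with OVA24h for the 5 allergen samples and AJ with PBS24h for the 5 PBS samples. OVA abbreviates ovalbumin and HDM house dust mite, and the sample descriptions give HDM where the titles give OVA, so the treatment is called allergen. All 40 descriptions name AJ, including those of the 20 arrays whose titles carry C3H, and strain was therefore read from the titles. Both groups are AJ mice, an inbred strain that the labels call hyperresponsive, and the PBS group received the same aspiration without allergen. Age, sex, dose and any earlier sensitisation were not given in the sources used here. The labels number the samples 1 to 5 in each group and do not say that each is a separate mouse. The p-values thus rest on sample-to-sample spread that may be technical in part. The question the comparison addresses is which genes of the hyperresponsive lung differ a day after allergen.

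In allergic airway inflammation, type 2 cytokines act on the airway epithelium and on macrophages. Epithelial cells turn to mucus secretion and release eotaxins and other chemokines that draw eosinophils and monocytes, and macrophages take on an alternatively activated state marked by arginase, chitinase-like proteins and lectins. Whole lung RNA mixes all these cells, so more or fewer cells of a type and more or less RNA per cell of that type cannot be told apart.

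Levels are intensities of 1 probe set per gene on the deposited linear scale, given in the order of replicates 1 to 5. Differences are log2 fold changes of intensity + 16, allergen minus PBS, with limma's standard error (SE) and p adjusted over 12393 genes, n = 5 arrays in each group. Rose and fell are used of genes with an adjusted p below 0.05. In all 565 genes rose (4.56% of those tested) and 406 fell (3.28%), 7.84% together, and the median log2 fold change over all genes was 0. The 5 allergen arrays and the 5 PBS arrays did not overlap for 8.67% of genes (allergen above PBS for 4.82% and below for 3.86%), and 5.86% both passed and did not overlap. Array medians were 74.0 ± 1.79 with allergen and 74.1 ± 2.71 with PBS (SD), with an exact two-sided permutation p of 0.968. The deposited intensities were already scaled to nearly the same trimmed mean. Near-equal medians therefore do not show that the groups were alike before scaling. The log2 ratio of 3′ to 5′ control probe sets, a measure of RNA integrity, averaged 0.148 with allergen and 0.138 with PBS for Actb (exact p = 0.913), and -0.124 and -0.286 for Gapdh (exact p = 0.0952, adjusted over 3 measures 0.286). Defining lung genes were bright in both groups. The surfactant gene Sftpc lay between 4320 and 7790 with allergen and between 5540 and 6160 with PBS, and the club cell secretory gene Scgb1a1 between 4190 and 7440 with allergen and between 5130 and 6460 with PBS.

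Chil4 and Chil3, secreted relatives of chitinases that have lost the enzyme activity, stand near each other on chromosome 3, and Retnla, a secreted resistin-like protein of alternatively activated macrophages, is on chromosome 16. All 3 rose, with values given further on, and their promoters are shown because the paralogs Chil4 and Chil3 are alike there. Shown are the 250 bases before each RefSeq start in GRCm38.p6, 5′ to 3′, with capitals on the match to TTCNNNGAA (Chil4 and Chil3) or TTCNNNNGAA (Retnla), spacings of the element that STAT proteins can bind. Chil4 is chr3:106219480-106219729 on the minus strand, Chil3 is chr3:106167565-106167814 on the minus strand, and Retnla is chr16:48842359-48842608 on the plus strand.
Chil4: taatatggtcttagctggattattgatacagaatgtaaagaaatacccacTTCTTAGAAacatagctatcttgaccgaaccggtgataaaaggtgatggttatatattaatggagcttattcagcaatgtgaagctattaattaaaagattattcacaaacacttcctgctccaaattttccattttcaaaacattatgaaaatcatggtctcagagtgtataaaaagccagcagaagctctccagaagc
Chil3: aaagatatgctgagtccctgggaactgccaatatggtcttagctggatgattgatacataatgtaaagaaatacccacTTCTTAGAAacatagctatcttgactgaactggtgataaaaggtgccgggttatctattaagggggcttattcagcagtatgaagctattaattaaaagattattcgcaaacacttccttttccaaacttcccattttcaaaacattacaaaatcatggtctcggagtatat
Retnla: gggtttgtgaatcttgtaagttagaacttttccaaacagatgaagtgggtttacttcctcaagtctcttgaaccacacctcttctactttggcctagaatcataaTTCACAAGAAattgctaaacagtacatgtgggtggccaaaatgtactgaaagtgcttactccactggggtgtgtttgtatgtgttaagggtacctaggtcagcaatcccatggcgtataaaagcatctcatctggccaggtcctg
Over 221 aligned bases, the Chil4 and Chil3 stretches were 91.4% identical, and both held the same match, which starts 200 bases before the Chil4 start and 172 before the Chil3 start. In Retnla the match starts 145 bases before the start. TTCNNNGAA, which reads the same on both strands, was found in the windows of 41 of 420 genes that rose and had an entry (9.76%), against 7.31% of all 9887 genes with an entry. TTCNNNNGAA was found in 32 of those 420 (7.62%), against 5.85% of all. Of 320 genes that fell and had an entry, 5.62% held TTCNNNGAA and 6.56% held TTCNNNNGAA. Of 6 motifs searched on both strands these 2 are shown, and they did not stand out. Another of the 6, TGANTCA, was found in 45 of the 420 (10.7%), against 6.84% of all and 8.75% of the genes that fell. The shares were not tested.

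Genes of airway mucus rose, among them Clca1, the gene with the largest log2 fold change of those tested. Of 32 listed goblet cell and mucus genes 28 were measured, and 14 rose (50%) while 1 fell, with a median log2 fold change of 0.52 against 0 for all genes. Clca1, a protease-like secreted protein of goblet cells, had intensities of 5220, 3580, 4360, 4020 and 3930 with allergen, against 16, 14, 192, 11.8 and 11.7 with PBS. PBS replicate 3 stood above the other PBS samples and still far below every allergen sample. Clca1 rose by 6.60 ± 0.55 (adjusted p = 2.85e-11), and its dimmer second probe set gave 1.31.

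Slc26a4, the anion exchanger pendrin of the airway surface, had 1630, 1320, 1360, 1690 and 645 with allergen, against 80.1, 93.7, 74.3, 93 and 68.8 with PBS (3.71 ± 0.33, adjusted p = 1.39e-10). Allergen replicate 5 was the low one of its group, and the groups lay well apart. Muc5ac, the gel-forming mucin that allergen induces in mouse airways, had a lowest value of 147 and a median of 190 with allergen, against 11.1 and 14.9 with PBS, where the highest was 19.1 (2.74 ± 0.32). Muc5b, the gel-forming mucin made at rest, had 811, 918, 691, 742 and 835 with allergen, against 268, 309, 486, 320 and 276 with PBS (1.26 ± 0.22, adjusted p = 0.000121). Both mucins rose without overlap between the groups, with Muc5ac dim at rest and Muc5b clearly detected at rest. Spdef, the transcription factor of goblet cell fate, rose by 1.21 ± 0.23, and Foxa2, a factor that restrains that fate, stood at -0.31 ± 0.15 and did not pass. Agr2, a disulfide isomerase needed to fold mucins, rose by 2.76 ± 0.35 on its brightest probe set and stood at 0.71 on the other. Pigr, the receptor that carries polymeric antibodies across epithelium, rose by 2.36 ± 0.30, and Fcgbp, a mucus protein that resembles mucins, by 2.27 ± 0.20. The list's 1 fall, named after its values were seen, was Bpifa1, a secreted protein of the upper airway, which had 112 to 782 with allergen and 704 to 3400 with PBS (-1.97 ± 0.41). The Bpifa1 groups overlapped.

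**Figure D1:**
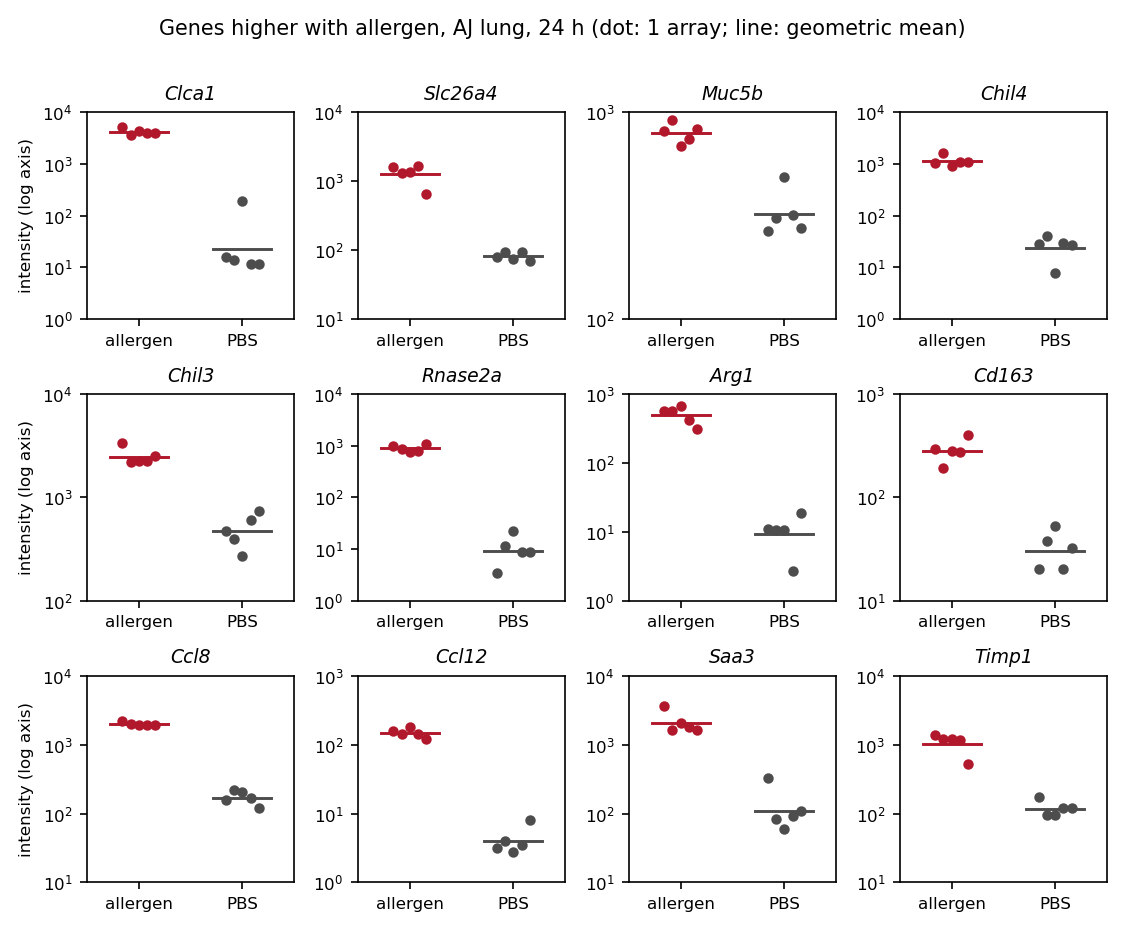
Intensity on a log axis of 12 genes that rose, 1 dot per array with allergen on the left and PBS on the right of each panel and a line at the geometric mean. For all 12 genes the 5 allergen arrays lie above the 5 PBS arrays, with Clca1 at 3580 to 5220 against 11.7 to 192.

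Enzymes that build mucin sugars moved less. Of 37 listed glycosylation genes 35 were measured and 4 rose, with a median of 0.14. Galnt6, which starts O-linked chains, had 43.1 to 68.3 with allergen and 4.37 to 30.6 with PBS (1.31 ± 0.32, adjusted p = 0.00661). The others were Galnt7 (0.57), the sialyltransferase St3gal1 (0.54) and the galactosyltransferase B4galt1 (0.43), and B4galt1 did not pass without allergen replicate 1 or 2 or PBS replicate 1, 2, 4 or 5. In the secretory pathway, 11 of 36 endoplasmic reticulum folding and stress genes rose and 1 fell, with a median of 0.31, and without allergen replicate 2 the number that rose was 7. Creld2, a disulfide isomerase partner induced by folding stress, had 295, 448, 267, 290 and 201 with allergen, against 123, 130, 134, 142 and 192 with PBS (0.95 ± 0.15, adjusted p = 1.89e-05). Allergen replicate 5 lay just above PBS replicate 5. The chaperone Dnajb11 rose by 0.89 ± 0.25 and did not pass without allergen replicate 2 or PBS replicate 2. Smaller rises were those of the secreted folding factor Manf (0.82), the signal peptidase subunits Sec11c (0.78) and Spcs3 (0.65), and the isomerase Pdia6 (0.65), with overlapping groups for Manf and Pdia6. The fall, named after its values were seen, was Trib3, a pseudokinase of the integrated stress response, at -0.46 ± 0.15.

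In contrast, part of the club cell and airway detoxification list fell, a list that also counts the basal cell keratin Krt15. Club cells line the small airways and carry the lung's cytochromes and conjugating enzymes. Of 28 listed genes 24 were measured, and 11 fell (45.8%), with a median of -0.31. The count of falls is sensitive to single samples, at 6 without allergen replicate 2, 7 without allergen replicate 3, 5 without allergen replicate 4 and 6 without PBS replicate 5. Reep6, an endoplasmic reticulum membrane protein, had 24, 16.4, 51.3, 53.4 and 22.6 with allergen, against 267, 225, 233, 203 and 259 with PBS. It fell by 2.42 on the log2 scale (SE 0.27, adjusted p = 2.11e-08), and the lowest PBS sample stood well above the highest allergen sample. Ephx1, the microsomal epoxide hydrolase, had 329, 323, 351, 327 and 366 with allergen, against 665, 765, 787, 730 and 901 with PBS (-1.14 ± 0.12, adjusted p = 4.55e-09). The allergen samples lay close together, below every PBS sample. The glutathione transferase Gstm1 changed by -0.74 ± 0.11. Krt15, a basal cell keratin, had 107, 9.05, 6.74, 7.82 and 5.29 with allergen, against 129, 66.9, 208, 132 and 265 with PBS (-2.32 ± 0.74, adjusted p = 0.0441). Allergen replicate 1 lay among the PBS samples, and Krt15 did not pass without any 1 of allergen replicates 2 to 5 or PBS replicates 1, 3, 4 and 5. Scgb1a1, the most abundant club cell product, did not pass (-0.09 ± 0.13).

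Outside that list, the carboxylesterase Ces1g had 16.7, 16.1, 14.2, 17.7 and 17.6 with allergen, against 136, 123, 81.6, 147 and 136 with PBS (-2.09 ± 0.15, adjusted p = 8.27e-13). Gsta2, an alpha class glutathione transferase, had 48.7, 32.9, 57.5, 48.9 and 44.3 with allergen, against 171, 159, 122, 196 and 229 with PBS (-1.60 ± 0.17, adjusted p = 9.52e-09). Neither gene's groups overlapped. Another probe set is annotated to Gsta2 together with Gsta1 and Gm3776, near-identical relatives, so the split between these genes is uncertain. Among 38 measured glutathione, thioredoxin and other antioxidant genes, 9 fell and 4 rose (median -0.08). The rises were Mt2, Mt1, Hmox1 and, named after its values were seen, the mitochondrial superoxide dismutase Sod2 (0.34), which did not pass without any 1 of allergen replicates 1 to 3 and PBS replicates 2, 4 and 5. Gpx2, an epithelial glutathione peroxidase, fell with -0.96 ± 0.23, the transferase Mgst3 with -0.92 ± 0.19 and the quinone reductase Nqo1 with -0.76 ± 0.15. The metallothioneins, which bind zinc and copper, went the other way. Mt2 had 1060 to 2350 with allergen and 393 to 614 with PBS (1.42 ± 0.19), and Mt1 rose by 1.03 ± 0.18 and did not pass with the mean of its probe sets (0.43).

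**Figure D2:**
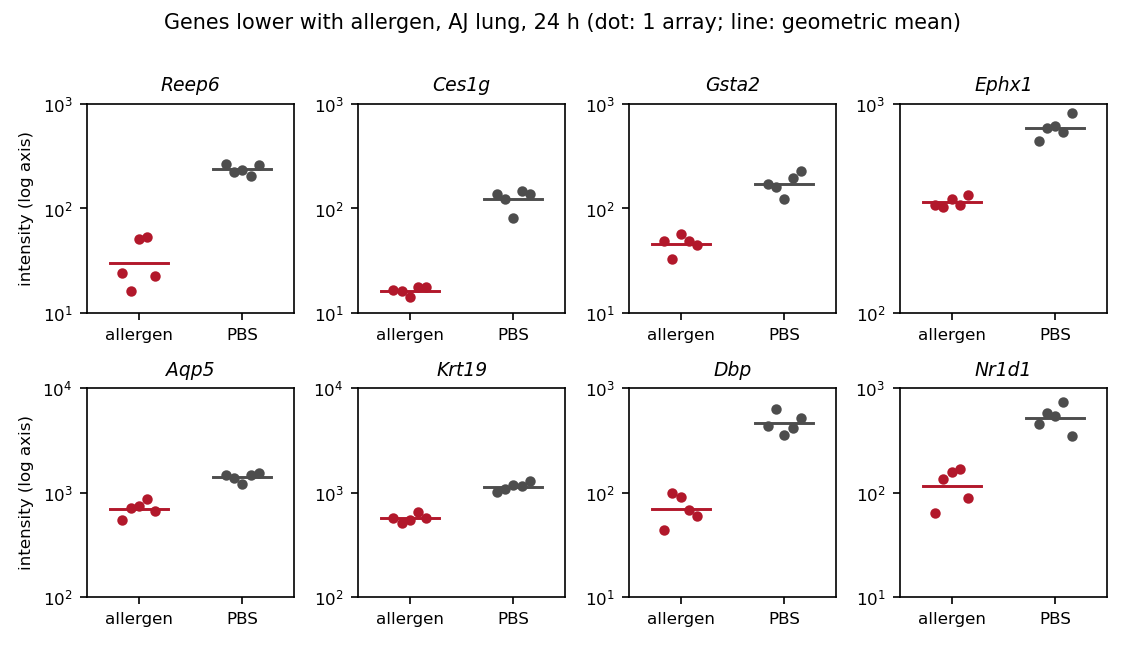
Intensity on a log axis of 8 genes that fell, 1 dot per array with allergen on the left and PBS on the right of each panel and a line at the geometric mean. The allergen arrays lie below the PBS arrays in every panel, with Ces1g at 14.2 to 17.7 against 81.6 to 147.

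The keratin and junction list and the alveolar list also had more falls than rises. Their shares of falls were 27.6% and 15%, against 3.28% of all genes. In the ciliated cell list 1 of 14 fell (7.14%), and a single gene gives no direction for a list. The airway ion and water transport list was even, with 4 rises and 4 falls among 25 measured (median 0.03). Of 29 measured keratins and junction genes 8 fell (median -0.33), and the number of falls was 3 without allergen replicate 5. It was 4 or 5 without allergen replicate 2 or 3 or PBS replicate 1, 3, 4 or 5. The simple-epithelium keratin Krt19 had 571, 520, 555, 652 and 568 with allergen, against 1020, 1090, 1190, 1160 and 1290 with PBS (-0.98 ± 0.16, adjusted p = 3.39e-05). Every allergen sample was below every PBS sample. The tight junction gene Cldn7 changed by -0.66 ± 0.15. Aqp5, the water channel of alveolar type I and gland cells, had 555, 710, 745, 868 and 673 with allergen, against 1480, 1370, 1210, 1490 and 1530 with PBS (-0.99 ± 0.16, adjusted p = 3.55e-05). In the alveolar list 3 of 20 fell, 1 rose and the median was -0.15, and 1 fell without allergen replicate 2 or PBS replicate 5. Beside Aqp5, the surfactant gene Sftpb (-0.47) and the membrane gene Emp2 (-0.34) fell and the cathepsin gene Ctsh rose (0.63). Sftpb did not pass without any 1 of allergen replicates 2 and 3 and PBS replicates 1 and 5, nor Emp2 without any 1 of allergen replicates 2, 4 and 5 and PBS replicates 2, 3 and 5. Sftpc did not pass (-0.09 ± 0.15). Of 14 measured ciliated cell genes 1 fell, the microtubule gene Tppp3 (-0.76 ± 0.14), and the ciliogenesis factor Foxj1 did not pass (-0.24 ± 0.22).

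Type 2 effector genes were high while the cytokines themselves were dim. Il4, Il5 and Il13, the cytokines of type 2 lymphocytes, did not pass at 24 h, at 0.23 ± 0.17, -0.02 ± 0.19 and 0.58 ± 0.21. In AJ at 6 h, against that time's own PBS group, they stood higher, at 1.25 ± 0.17, 0.68 ± 0.19 and 1.19 ± 0.21. Il13 had 9.98, 10, 19.6, 24.6 and 11.1 with allergen, against 4.52, 5.05, 4.44, 4.78 and 3.19 with PBS. Its groups did not overlap, though 8 of the 10 values lay below the added 16. Of 26 measured type 2 cytokines, receptors and signalling genes 7 rose (median 0.27). Il33, the epithelial alarmin, had 693, 647, 782, 661 and 519 with allergen, against 358, 274, 228, 292 and 353 with PBS (1.10 ± 0.19, adjusted p = 9.52e-05). Il4ra, the receptor chain shared by IL-4 and IL-13, rose by 1.18 ± 0.17 on its brightest probe set of 3 and stood at 0.00 on the lowest. Il13ra2, a decoy receptor for IL-13, rose by 0.91 ± 0.20, and Csf2rb, the beta chain that signals for IL-5 and GM-CSF, by 1.43 ± 0.20.

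All 5 measured chitinases and chitinase-like genes were higher on average, and 4 rose, with a median of 1.97. Chil4 had 1060, 1660, 934, 1110 and 1110 with allergen, against 28.4, 40.9, 7.89, 29.1 and 27.6 with PBS (4.83 ± 0.30, adjusted p = 7.09e-15). Chil3 had 3370, 2210, 2260, 2240 and 2490 with allergen, against 471, 393, 271, 606 and 738 with PBS (2.36 ± 0.23, adjusted p = 1.53e-09). Chil4, the paralog that was dim at rest, had the larger fold, and for neither did the groups overlap. Another probe set is annotated to both, so the split between these near-identical genes is uncertain. Chia1, the active acidic chitinase, had 1530, 1370, 1480, 1480 and 1260 with allergen, against 296, 357, 342, 386 and 378 with PBS (1.97 ± 0.20). Chil1, the mouse gene for the YKL-40 protein, had 2140 to 3920 with allergen and 1120 to 1810 with PBS (1.04 ± 0.14). Retnla had 8970, 4900, 5940, 4910 and 5720 with allergen, against 2820, 1840, 2620, 2250 and 2170 with PBS (1.35 ± 0.20). Its lowest allergen sample was above its highest PBS sample.

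Rnase2a, an RNase A family member of the eosinophil-associated ribonucleases, had 997, 855, 757, 803 and 1090 with allergen, against 3.42, 11.7, 22.4, 8.6 and 8.89 with PBS (5.11 ± 0.30, adjusted p = 1.67e-15). No PBS sample exceeded 22.4. It was the only 1 of 8 measured eosinophil markers that rose, against a list median of 0.08. The list was mostly dim, and 2 of the 8 remained when the 25% dimmest genes were left out. The granule genes Epx and Prg2 lay at 17.4 to 27.7 and 16.3 to 30.3 with allergen, against 14.2 to 27 and 14.4 to 25.2 with PBS, and did not pass (0.01 ± 0.12 and 0.09 ± 0.16). Values this near the added 16 do not show that their RNA was unchanged. Which cells held the Rnase2a RNA was not tested. Alox15, a lipoxygenase, had 63 to 121 with allergen and 32.6 to 60.8 with PBS. Its groups did not overlap, and it did not pass (0.89 ± 0.35, adjusted p = 0.13).

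Macrophage genes rose broadly. Of 24 measured macrophage and monocyte markers 18 rose (75%), with a median of 0.81. The mean of this list on the log2 scale lay between 8.23 and 8.46 with allergen and between 7.48 and 7.65 with PBS. Cd163, the haemoglobin scavenger receptor, had 293, 194, 279, 275 and 402 with allergen, against 20.3, 37.5, 53, 20.5 and 32.1 with PBS (2.65 ± 0.20, adjusted p = 2.61e-12). Mrc1, the mannose receptor, had 1400, 1260, 1120, 1110 and 1360 with allergen, against 437, 323, 257, 375 and 377 with PBS (1.79 ± 0.17, adjusted p = 1.41e-09). Both receptors were low in every PBS sample relative to every allergen sample. Of 32 alternative activation genes 19 rose (59.4%, median 0.71), and lists share members such as Cd163 and Mrc1. Arg1, which splits arginine into ornithine and urea, had 565, 568, 663, 423 and 312 with allergen, against 11.1, 10.7, 10.7, 2.7 and 18.8 with PBS (4.27 ± 0.34, adjusted p = 6.20e-12). Nos2, the inducible synthase that uses the same substrate, was at 3.32 to 4.26 with allergen and 2.07 to 7.22 with PBS. It was dim everywhere, and is named here as a comparison chosen after its values were seen. In the arginine list 6 of 23 genes rose. Gatm, the first enzyme of creatine synthesis from arginine, had 255, 234, 141, 176 and 169 with allergen, against 21, 33.5, 49.8, 91.5 and 41.9 with PBS (1.79 ± 0.20). The arginine transporter Slc7a2 rose by 1.03 ± 0.16.

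Phagocyte machinery rose with these markers. In the lysosome list 17 of 40 rose and 1 fell (median 0.26). Ctsk, a collagen-degrading cathepsin, had 312 to 600 with allergen and 103 to 246 with PBS (1.63 ± 0.20), and Lgmn, an asparagine endopeptidase, rose by 1.08 ± 0.13. The fall was the cathepsin Ctsf (-0.98 ± 0.30), which passed with all 10 arrays and not without any 1 of 8 of them, allergen replicate 5 and PBS replicate 1 being the exceptions. Of 26 Fc receptors, lectins and their adaptors 15 rose (57.7%, median 0.60). Fcer1g, the signalling chain shared by Fc receptors, had 486, 666, 477, 503 and 559 with allergen, against 176, 136, 156, 157 and 157 with PBS (1.68 ± 0.16, adjusted p = 1.15e-09). The PBS samples lay close together, far below the allergen samples. Clec4e, the lectin Mincle, rose by 1.88 ± 0.26 and its partner Clec4d by 1.33. Of 32 genes of the actin cytoskeleton of motile cells 16 rose, led by the GTPase Rac2 (1.15 ± 0.24) and the adaptor Hcls1 (1.12 ± 0.25). Ifi30, a thiol reductase of antigen processing, had 1190, 1180, 1120, 991 and 1130 with allergen, against 422, 381, 343, 372 and 391 with PBS (1.52 ± 0.14, adjusted p = 6.73e-10). In the whole antigen presentation list 5 of 18 rose, and 3 rose without allergen replicate 3, PBS replicate 3 or PBS replicate 4. The others that rose were the class I gene H2-K1 (0.81), the cathepsin Ctss (0.62), the peptide transporter Tap1 (0.59) and the class I light chain B2m (0.39), of which Tap1 and B2m did not pass without each of these 3 arrays, among others.

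Among chemokines, which direct leukocyte movement, 18 of 33 rose (54.5%, median 0.73). Ccl8, a chemokine of the CC family, had 2240, 2000, 1940, 1930 and 1960 with allergen, against 155, 217, 203, 166 and 121 with PBS (3.45 ± 0.20, adjusted p = 1.67e-15). Ccl12, a ligand of the monocyte receptor CCR2, had 156, 143, 181, 141 and 122 with allergen, against 3.16, 3.95, 2.73, 3.54 and 7.97 with PBS (3.02 ± 0.22, adjusted p = 1.28e-12). In both cases the allergen samples were within a narrow range. The eotaxin Ccl24 had 331, 316, 281, 392 and 153 with allergen, against 8.31, 10.3, 18.4, 9.89 and 12 with PBS (3.43 ± 0.31). The eotaxin Ccl11 had 457, 381, 395, 423 and 244 with allergen, against 45.7, 26.9, 24.8, 40.4 and 44 with PBS (2.91 ± 0.27). Allergen replicate 5 was the lowest of its group for both eotaxins. Ccl9 and Ccl7, also ligands of myeloid cells, rose by 2.61 ± 0.24 and 2.30 ± 0.25. Of 21 receptors 3 rose, namely Ccr1 (2.53 ± 0.27 on the brighter of 2 probe sets, 0.77 on the other), Cxcr6 (1.03 ± 0.19) and Ccr2 (0.74), whose groups overlapped and which did not pass without allergen replicate 3 or PBS replicate 5. Of 19 adhesion molecules 6 rose and 1 fell. Selp, the P-selectin of platelets and endothelium, had 103 to 169 with allergen and 33.9 to 70.2 with PBS (1.27 ± 0.17), Vcam1 rose by 0.94 ± 0.15, and the fall was Icam2, a resting endothelial ligand named after its values were seen, at -0.51 ± 0.14.

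Neutrophil markers rose in 8 of 18 members (median 0.62). S100a8, a subunit of calprotectin, had 1230, 505, 368, 412 and 2070 with allergen, against 87.5, 69.1, 53.4, 68.3 and 157 with PBS (2.92 ± 0.46, adjusted p = 2.06e-05). Allergen replicates 5 and 1 were highest, as they were in the mean of the whole neutrophil list, at 7.97 and 7.65 against 7.34 to 7.43 in the other allergen samples and 6.55 to 6.79 with PBS. Saa3, an acute phase apolipoprotein made in the lung, had 3690, 1630, 2050, 1820 and 1610 with allergen, against 331, 82.4, 60.3, 93.2 and 108 with PBS (adjusted p = 9.84e-10). Replicate 1 was the high sample in both groups. Lcn2, a siderophore-binding protein, had 2980 to 5960 with allergen and 464 to 1330 with PBS (2.55 ± 0.25).

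Some lymphocyte markers rose. In the T and NK cell list 6 of 29 rose (median 0.43), led by Cd3d, a chain of the T cell receptor complex, with 93.1, 75.8, 272, 92.3 and 113 with allergen, against 7.18, 16.5, 18.9, 28.4 and 31.4 with PBS (1.90 ± 0.39, adjusted p = 0.0009). Allergen replicate 3 stood apart for Cd3d and in the list mean, at 6.85 against 6.10 to 6.27 in the other allergen samples and 5.69 to 6.06 with PBS. In the B and plasma cell list 8 of 24 rose and 1 fell (Sdc1, a plasma cell and epithelial proteoglycan named after its values were seen, at -0.34, not passing without any 1 of allergen replicates 3 and 5 and PBS replicates 1, 2, 4 and 5), and 4 rose without allergen replicate 2, allergen replicate 3 or PBS replicate 1, and 5 without allergen replicate 5. Pou2af1, a coactivator of antibody genes, had 166, 416, 350, 139 and 272 with allergen, against 29.8, 37, 67.1, 70 and 55.3 with PBS (2.00 ± 0.36). Jchain, which joins polymeric antibodies, rose by 2.03 ± 0.46. Of 16 mast cell and basophil genes 1 rose (6.25%), near the 4.56% of all genes. This was Mcpt8, the basophil protease, with 39.8, 20.7, 47.5, 37.8 and 113 with allergen, against 4.43, 3.21, 5.33, 4.41 and 11.4 with PBS (1.52 ± 0.24). Replicate 5 was again the highest of each group.

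**Figure D3:**
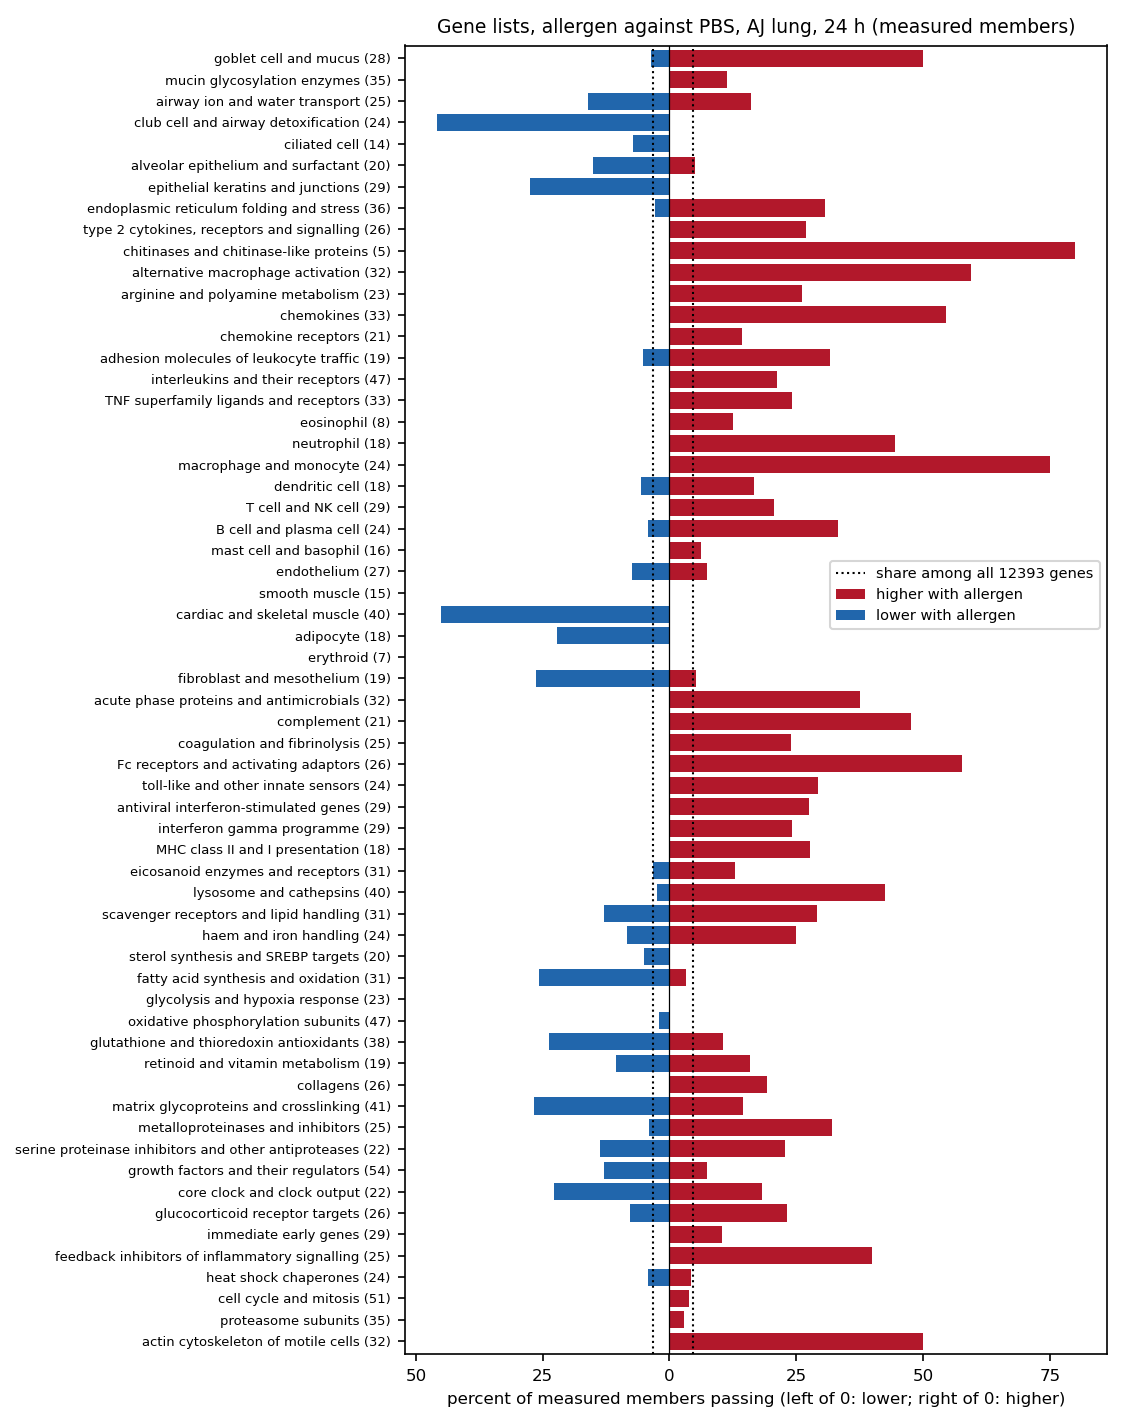
Percent of measured members that rose (right of 0) or fell (left of 0) in each of 61 lists, with dotted lines at 4.56% and 3.28%, the shares among all genes tested. Chitinases (80%), macrophage markers (75%) and alternative activation genes (59.4%) have the highest shares of rises. The club cell and airway detoxification list (45.8%) and muscle genes (45%) have the highest shares of falls.

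Cytokines and soluble defence genes were higher as well. In the interleukin list 10 of 47 rose. Il1b, the inflammasome cytokine, had 204, 233, 299, 250 and 291 with allergen, against 73.4, 76.4, 45.3, 50.4 and 69.9 with PBS (1.79 ± 0.24). Soluble inhibitors rose beside it, Il1rn, the antagonist of its receptor (1.58), and Il18bp, the binding protein of IL-18 (1.54 ± 0.19). In the TNF superfamily 8 of 33 rose, led by the costimulatory receptor Tnfrsf9 (2.23 ± 0.25 on the brightest of 3 probe sets, -0.06 on the lowest) and by Tnfsf13b, the B cell survival factor BAFF, with 323 to 476 with allergen and 115 to 164 with PBS (1.41 ± 0.14). Socs3, the feedback inhibitor of cytokine receptors, rose by 1.62 ± 0.17. Complement had 10 of 21 higher (47.6%, median 0.54). Cfb, the protease of the alternative pathway, had 585, 482, 435, 501 and 407 with allergen, against 124, 75, 101, 92.5 and 84.4 with PBS (2.16 ± 0.21, adjusted p = 1.27e-09). C1qc, of the first component, rose by 1.32 ± 0.17 and C3ar1, the receptor of the C3a fragment, by 1.22. Of 29 antiviral interferon genes 8 rose, with the regulator Irf7 at 1.10 ± 0.18 and the sensor Zbp1 at 1.29. Slfn4, a myeloid schlafen gene, had 254, 154, 113, 120 and 250 with allergen, against 7.57, 8.17, 26.7, 25.5 and 31.7 with PBS (2.42 ± 0.31).

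Matrix genes changed in both directions. Timp1, the inhibitor of metalloproteinases, had 1360, 1190, 1200, 1180 and 524 with allergen, against 175, 95.1, 94.3, 119 and 119 with PBS (2.98 ± 0.20, adjusted p = 4.73e-14). Allergen replicate 5 had less than the other allergen samples and more than any PBS sample. Of 25 metalloproteinases and inhibitors 8 rose and 1 fell (the inhibitor Timp2, named after its values were seen, at -0.41, not passing without allergen replicate 1, PBS replicate 2 or PBS replicate 4), and 4 or 5 rose without allergen replicate 1 or 2 or PBS replicate 2. Of 26 collagen genes 5 rose, among them Col5a2, a fibrillar collagen, with 823, 688, 607, 648 and 668 with allergen, against 365, 346, 432, 270 and 285 with PBS (0.99 ± 0.12, adjusted p = 9.53e-08). The microfibril chains Col6a2 and Col6a1 rose by 0.93 ± 0.13 and 0.89 ± 0.12, and the fibrillar Col3a1 by 0.54 and Col8a1 by 0.46 (the call for Col8a1 was lost with the mean of its probe sets). In the list of matrix glycoproteins and crosslinking enzymes 11 of 41 fell and 6 rose (median -0.21). The falls included the elastic fibre protein Fbln1, with 157 to 201 with allergen and 282 to 422 with PBS (-0.92 ± 0.21), and the enhancer of procollagen cleavage Pcolce2 (-0.96 ± 0.16). The rises included the adhesive protein Thbs1 (1.28 ± 0.13) and the proteoglycan Vcan (0.90 ± 0.15). The antiprotease Serpina3n had 1920, 1510, 1460, 1540 and 1850 with allergen, against 528, 361, 428, 381 and 370 with PBS (1.96 ± 0.19, adjusted p = 1.80e-09). Fst, the secreted antagonist of activin, rose by 1.20 ± 0.20, and Inhba, the activin A subunit, by 1.38 ± 0.34 with overlapping groups.

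Clock genes changed in both directions. The core clock is a loop in which Arntl and its partners drive the repressors Nr1d1 and Nr1d2 and the output factors Dbp, Tef and Hlf, and Nr1d1 in turn represses Arntl and Nfil3. Of 22 measured clock genes 5 fell and 4 rose, and 2 rose without PBS replicate 3. Dbp had 43.7, 98.6, 90.4, 68.8 and 59.6 with allergen, against 432, 631, 354, 414 and 524 with PBS (-2.48 ± 0.21, adjusted p = 4.60e-11). Nr1d1 had 64.1, 134, 159, 170 and 88.3 with allergen, against 450, 582, 539, 745 and 346 with PBS (-2.01 ± 0.22, adjusted p = 1.26e-08). For both, the highest allergen sample was far below the lowest PBS sample. Nr1d2 changed by -1.32 ± 0.21, Hlf by -0.79 ± 0.14 and Tef by -0.60 ± 0.12. Arntl had 131, 96.7, 118, 119 and 138 with allergen, against 61.3, 47.3, 73.5, 59.9 and 44.5 with PBS (0.90 ± 0.15, adjusted p = 5.25e-05). Nfil3 rose by 0.79 ± 0.18, Cry1 by 0.72 with overlapping groups and Npas2 by 0.65 ± 0.18. The period genes Per1, Per2 and Per3 did not pass, at -0.25 ± 0.21, -0.07 ± 0.16 and -0.44 ± 0.17. The labels give 24 h after aspiration for both groups, and the sources used here do not give the clock time of each sample. Klf15, a glucocorticoid-induced factor with a daily rhythm, fell by 1.25 on the log2 scale (SE 0.18).

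Cardiac and skeletal muscle genes were lower with allergen. The mouse lung holds cardiac-type muscle around its veins, and dissected lung can carry other tissue. Of 40 measured muscle genes 18 fell (45%), with a median of -1.28. The list mean was 7.29, 7.14, 7.22, 7.31 and 6.64 with allergen, against 8.31, 8.48, 8.49, 7.81 and 8.66 with PBS. The groups did not overlap, and allergen replicate 5 and PBS replicate 4 were the lowest of their groups. Tnni3, cardiac troponin I, had 18.6, 79.3, 110, 129 and 129 with allergen, against 229, 224, 483, 284 and 228 with PBS (-1.59 ± 0.34). The muscle enzymes Pgam2 and Ckmt2 changed by -2.22 ± 0.47 and -1.74 ± 0.46, and Ckmt2 did not pass without PBS replicate 5.

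Adipocyte genes varied more between samples. The adipocyte list mean was 6.45, 7.52, 8.12, 7.26 and 7.31 with allergen, against 8.05, 8.55, 9.25, 8.05 and 7.54 with PBS, and the groups overlapped. Of 18 measured genes 4 fell, and 1 fell without PBS replicate 3, the sample with the highest mean. Beside Thrsp these were the lipid droplet gene Cidec (-1.14), the glucose transporter Slc2a4 (-0.84) and the phosphatidate phosphatase Lpin1 (-0.74), all 3 lost without PBS replicate 3, and Cidec also without any 1 of allergen replicates 1, 2, 4 and 5 and PBS replicate 2. Thrsp, a regulator of fat synthesis, had 14.4, 129, 498, 151 and 60.9 with allergen, against 758, 1030, 2640, 736 and 435 with PBS (-2.92 ± 0.74), with overlapping groups. The fat cell hormone Adipoq, named after its values were seen, had 0.88 to 424 with allergen and 202 to 1120 with PBS and did not pass (-1.95 ± 0.70, adjusted p = 0.088).

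These values stand beside the fall in fatty acid genes, where 8 of 31 fell and 1 rose (median -0.40), and 5 fell without allergen replicate 1 or PBS replicate 3. Fasn, the fatty acid synthase, had 705, 825, 1080, 925 and 679 with allergen, against 1540, 1580, 3540, 1190 and 1170 with PBS (-0.97 ± 0.26, adjusted p = 0.0123), and did not pass without PBS replicate 3. Scd1, the stearoyl desaturase, changed by -0.68 ± 0.14. The rise was Angptl4, an inhibitor of lipoprotein lipase, with 375, 389, 215, 224 and 482 with allergen, against 91.6, 124, 186, 150 and 113 with PBS (1.21 ± 0.23 on the brighter probe set, -0.09 on the other). Fabp3, the fatty acid binding protein of heart, fell with -1.71 ± 0.35. Of 47 oxidative phosphorylation subunits 1 fell (2.13%), under the 3.28% of all genes. It was Ndufv1 of complex I (-0.47 ± 0.12), and the list median was -0.20. The part of muscle and fat content in these falls, and in the other falls, was not tested.

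**Figure D4:**
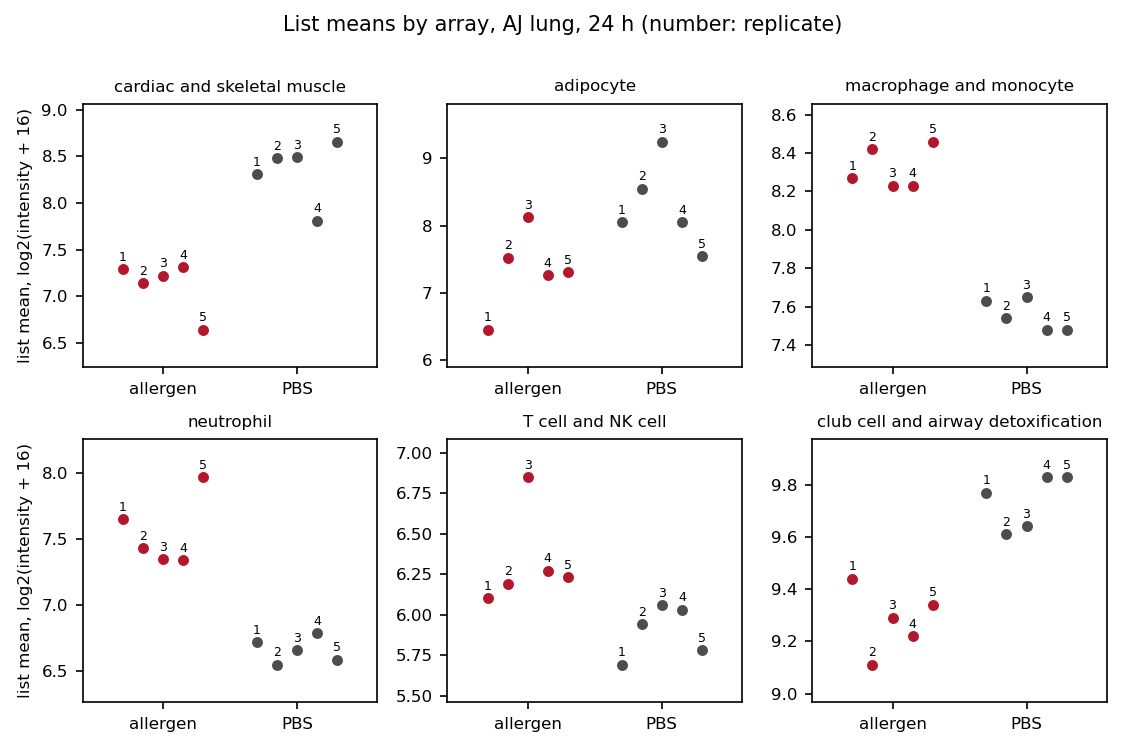
Mean log2(intensity + 16) of 6 lists in each array, numbered by replicate, with allergen on the left and PBS on the right. Muscle, macrophage, neutrophil, T cell and club cell lists do not overlap between the groups, adipocyte means overlap, and allergen replicate 3 stands apart at 6.85 in the T cell list.

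Genes of haem and iron handling included 6 that rose and 2 that fell among 24, the falls being Blvrb and Alas1, the first enzyme of haem synthesis, named after its values were seen (-0.58 ± 0.12). Hmox1, which breaks down haem, had 306, 122, 265, 275 and 220 with allergen, against 115, 101, 123, 90.5 and 109 with PBS (0.99 ± 0.25). Allergen replicate 2 lay among the PBS samples. The iron reductase Steap4 had 348, 530, 425, 554 and 279 with allergen, against 126, 101, 134, 84.3 and 123 with PBS (1.75 ± 0.32). Blvrb, a biliverdin reductase, had 41.7, 35.9, 39, 69.5 and 73.7 with allergen, against 179, 135, 109, 134 and 222 with PBS (-1.34 ± 0.35), and did not pass with 1 in place of the added 16. Aldh1a3, which makes retinoic acid, had 88.6, 100, 107, 131 and 67 with allergen, against 1.8, 1.67, 3.56, 2.82 and 2.03 with PBS (2.62 ± 0.19, adjusted p = 1.28e-12). No PBS sample exceeded 3.56, and the smallest change among its 3 probe sets was 0.32. Of 51 cell cycle genes 2 rose (3.92%), under the 4.56% of all genes. These were Cks1b (0.65) and Prc1 (0.34), and Cks1b did not pass without allergen replicate 2 or PBS replicate 3, nor Prc1 without any 1 of allergen replicates 1 to 3 and PBS replicates 1, 2, 3 and 5. The endothelial gene Pecam1 did not pass (-0.08 ± 0.11). Esm1, a proteoglycan of angiogenic endothelium, fell by 1.63 on the log2 scale (SE 0.24), with 0.816 to 14.5 with allergen and 25.1 to 82.5 with PBS.

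For dim genes the size of these changes depends on the added constant. With 1 in place of 16, Ccl12 stood at 4.89 and Aldh1a3 at 4.88, and with 64 at 1.63 and 1.28. Probe sets of a gene also disagreed for some genes given by their brightest one. The lowest value among them was 0.57 for Clec4e, 0.26 for Vcan, 0.14 for Npas2, 0.13 for Vcam1 and 0.12 for H2-K1. It was 0.10 for Pdia6, 0.09 for Galnt7, 0.06 for Sod2 and 0.03 for Col8a1. It was below 0 for Tap1 (-0.06), Prc1 (-0.11) and Mt1 (-0.17). Timp2, which fell on its brightest, had a highest value of -0.03. Of the 971 genes that changed, 61 had probe sets of opposite sign.

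The effect at 24 h was then set against the effect in the same strain 6 h after aspiration, which has its own PBS group. The AJ arrays at 6 h were less even in RNA integrity. The log2 ratio of 3′ to 5′ Actb control probe sets was 0.94 in allergen replicate 1 and 0.88 in PBS replicate 3. For Gapdh the same arrays had 0.86 and 0.84. At 24 h the Actb ratio was at most 0.22 with allergen and 0.26 with PBS. The array median was 63.7 in 6 h allergen replicate 2, against 71.7 to 75.9 with allergen at 24 h. The part of array quality in the differences was not tested. The difference of the 2 effects passed for 697 genes (5.62%), 437 higher (3.53%) and 260 lower (2.1%) at 24 h (288 and 273 when each array was centred on its median), and for 160 of the 971 genes that changed at 24 h. Those genes were picked with the same 24 h arrays that enter the difference. Cd163 rose by 2.65 ± 0.20 at 24 h and stood at 0.37 at 6 h, a difference of 2.29 ± 0.29 (adjusted p = 1.48e-06). Hmox1 stood at 0.99 at 24 h and -1.68 at 6 h, a difference of 2.67 ± 0.36 (adjusted p = 3.95e-06). Cfb, with 2.16 and 0.57, differed by 1.59 ± 0.30, and Il18bp, with 1.54 and 0.10, by 1.44 ± 0.27. The effect at 24 h was also larger for Rnase2a (by 1.59, not passing with 1 in place of the added 16), Fst (1.54), Timp1 (1.20), Ccl8 (1.19), Serpina3n (1.19) and Gatm (1.17). Ces1g had a further fall, with -2.09 at 24 h and -0.51 at 6 h (difference -1.58 ± 0.21), and so had Nr1d1 (difference -1.41 ± 0.31). Other genes had smaller effects at 24 h. Socs3 stood at 1.62 at 24 h and 2.88 at 6 h (difference -1.25 ± 0.24), the chemokine Cxcl10 at 0.83 and 3.37 (difference -2.54 ± 0.31; its rise at 24 h did not pass without allergen replicate 3), and Selp at 1.27 and 2.45 (difference -1.18 ± 0.24). For Clca1 the difference between times was -0.04 ± 0.78 and did not pass.

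Against C3H, the other strain, the effect at 24 h differed for 57 genes (0.46%), 29 higher (0.234%) and 28 lower (0.226%) in AJ. With median centring these were 16 and 27. The effect differed for 45 of the 971 genes that changed in AJ. Those 971 were picked with the same AJ arrays that enter the difference. Itln1, a goblet cell lectin, had 823, 908, 742, 744 and 869 with allergen, against 13.3, 4.26, 42.6, 18.4 and 3.82 with PBS in AJ lungs (4.80 ± 0.26), and stood at 0.83 in C3H (difference 3.97 ± 0.37, adjusted p = 8.13e-09). Slfn4 stood at 2.42 in AJ and 0.37 in C3H (difference 2.05 ± 0.44). Cd163 stood at 2.65 and 0.83 (1.82 ± 0.29), Timp1 at 2.98 and 1.55 (1.42 ± 0.28), Ccl8 at 3.45 and 2.06 (1.39 ± 0.28) and Fst at 1.20 and -0.07 (1.27 ± 0.29). Reep6 and some detoxification genes fell further in AJ. Reep6 stood at -2.42 in AJ and -0.73 in C3H (difference -1.69 ± 0.38), Ces1g at -2.09 and -0.54 (-1.56 ± 0.21), Gsta2 at -1.60 and -0.50 (-1.10 ± 0.24) and Ephx1 at -1.14 and -0.42 (-0.72 ± 0.17). Clock genes differed as well. Dbp stood at -2.48 in AJ and -0.66 in C3H (-1.82 ± 0.30, adjusted p = 0.00144), Nr1d1 at -2.01 and -0.43 (-1.58 ± 0.31), and Arntl at 0.90 and -0.02 (0.92 ± 0.21). For Clca1 the difference between strains was 0.30 ± 0.78 and for Chil4 1.47 ± 0.42 (adjusted p = 0.103), and neither passed, which does not show equal responses. The strain counts rest on single arrays of AJ at 24 h. They were 9 higher and 11 lower without PBS replicate 5, 12 and 16 without allergen replicate 1, 13 and 10 without allergen replicate 2, 17 and 17 without PBS replicate 1, and 17 and 20 without allergen replicate 5. Ephx1, Fst, Reep6, Arntl, Gsta2 and Slfn4 each missed the threshold for the strain difference without at least 1 of these arrays (adjusted p up to 0.0892). The remaining 7 strain differences given here passed without any single AJ array of 24 h. The C3H arrays, which also enter these differences, were not left out in turn.

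**Figure D5:**
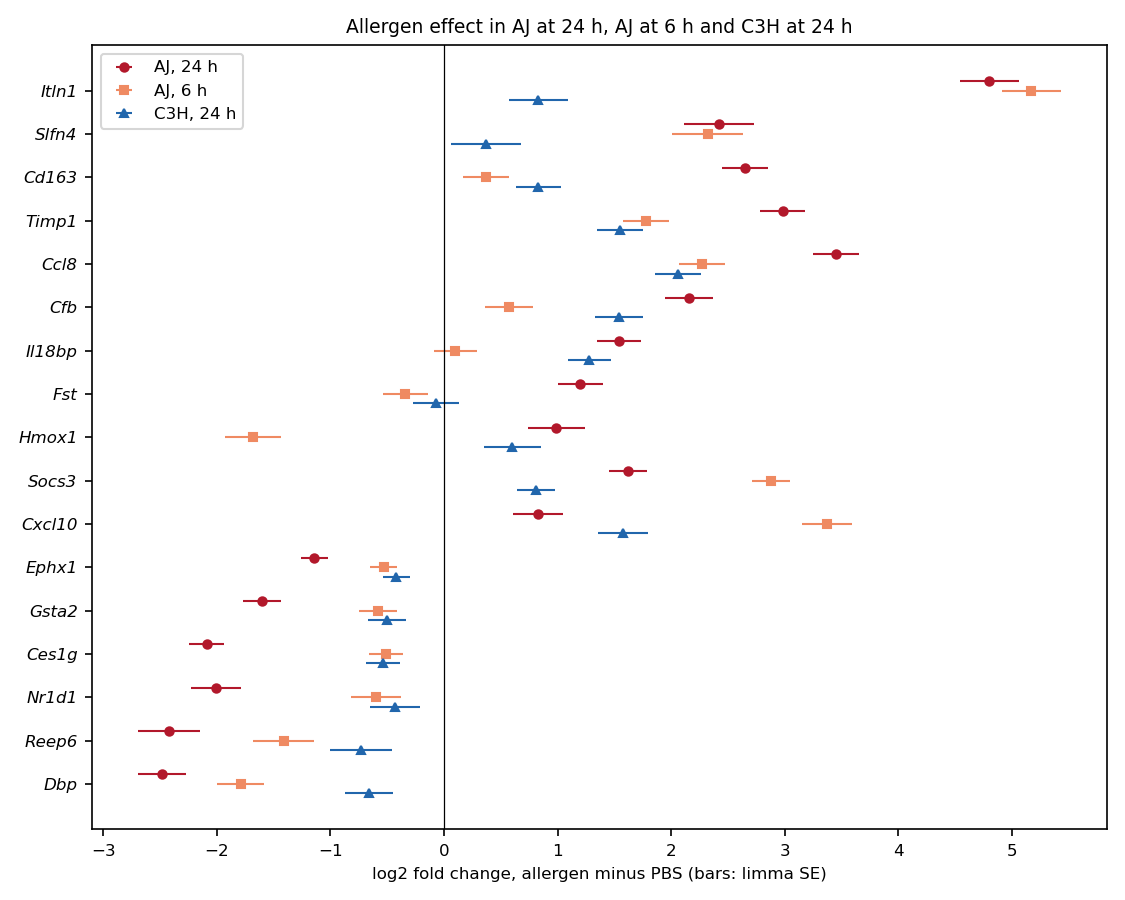
Log2 fold change of allergen minus PBS with limma SE for 17 genes in AJ at 24 h, AJ at 6 h and C3H at 24 h. Itln1 is at 4.80 and 5.17 in the AJ sets and 0.83 in C3H, Cd163 is at 2.65 in AJ at 24 h against 0.37 and 0.83, and Hmox1 is 0.99 at 24 h and -1.68 at 6 h in AJ.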

How the data were processed

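Lung RNA of 40 samples was measured on 1-colour Affymetrix arrays. The authors deposited linear intensities, 1 per probe set, already scaled, since the trimmed mean (2% at each end) was nearly the same on every array. Background, summary and scaling methods were not given in the sources used here, and replicate number limits the precision. Samples were grouped by title. Of 22690 probe sets, 64 are controls, 20380 have 1 symbol in the platform annotation, 691 several and 1555 none. The brightest probe set stood for each of 12393 genes. The log2 of intensity + 16 was fitted in R 4.3.3 with limma 3.58.1, as means of 8 groups over all 40 arrays. The 3 contrasts were tested two-sided with Benjamini-Hochberg adjustment at 0.05, namely the allergen effect in AJ at 24 h, its difference from AJ at 6 h, and its difference from C3H at 24 h. Genes were named by a rule, as the 30 largest rises and 25 largest falls without overlap, up to 6 per list and a fixed set. Exceptions are marked, apart from the clock genes Tef, Cry1, Npas2, Per1, Per2 and Per3, which were also named outside the rule. The members and the 61 gene lists were chosen with earlier results of these data known. Lists overlap and received no test of their own. Alternatives were other normalizations, added constants, filters, probe set summaries and spread estimates, a replicate block, and the 10 AJ arrays of 24 h alone. Each of these 10 arrays was also left out in turn. The code was tested on simulated data. RefSeq promoters were from GRCm38.p6.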

Additional observations from a re-analysis of the deposited data

Results flagged for a closer look

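A single array stood apart from the other 4 of its group by Dixon's ratio at the 95% level in 10 of 114 groups examined, and chance alone would mark about 1 in 20 groups. With allergen, replicate 1 was highest for Ccl8 (2240 intensity), Chil3 (3370) and Krt15 (107). Allergen replicate 5 was lowest for Slc26a4 (645), Timp1 (524) and the mean of the muscle list (6.64 on the log2 scale), and allergen replicate 3 was highest in the mean of the T and NK cell list (6.85). With PBS, replicate 5 was highest for Ccl12 (7.97) and replicate 3 for Clca1 (192) and Fasn (3540).

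The allergen effect in AJ lungs differed between 24 h and 6 h, by limma's test of the difference, for 41 of the 162 genes named, and the values of 17 of these are given. The difference, 24 h minus 6 h on the log2 scale, was 2.67 for Hmox1, 2.29 for Cd163, 1.59 for Cfb and for Rnase2a, 1.54 for Fst, 1.44 for Il18bp, 1.20 for Timp1, 1.19 for Ccl8 and for Serpina3n, and 1.17 for Gatm. It was -2.54 for Cxcl10, -1.58 for Ces1g, -1.41 for Nr1d1, -1.25 for Socs3, -1.18 for Selp, -1.02 for Gsta2 and -0.61 for Ephx1, which missed the threshold without PBS replicate 5.

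The effect at 24 h differed between strains, by the same test, for 23 of the 162 genes named, and the values of 13 of these are given. AJ minus C3H was 3.97 for Itln1, 2.05 for Slfn4, 1.82 for Cd163, 1.42 for Timp1, 1.39 for Ccl8, 1.27 for Fst and 0.92 for Arntl. It was -1.82 for Dbp, -1.69 for Reep6, -1.58 for Nr1d1, -1.56 for Ces1g, -1.10 for Gsta2 and -0.72 for Ephx1.

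Probe sets without a single gene symbol were outside the gene table. The probe set with the largest change among those with no symbol had 744 to 1030 with allergen and 63.3 to 80.8 with PBS (3.47 on the log2 scale). A probe set annotated to Chil4 and Chil3 together, had 1830 to 3620 with allergen and 158 to 329 with PBS (3.28). A probe set annotated to Gm3776, Gsta2 and Gsta1, had 30.7 to 58.1 with allergen and 250 to 464 with PBS (-2.71).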

How the results depend on the processing

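Of the 162 genes named, 145 passed in AJ at 24 h, 27 of these missed the threshold under at least 1 alternative, 24 of them without 1 array, and 0 changed sign. Leaving out 1 of the 10 AJ arrays of 24 h gave 462 to 526 genes higher and 284 to 365 lower. For the difference from 6 h these were 377 to 414 higher and 223 to 253 lower. Arrays of 6 h and of C3H were not left out, so the dependence on them was not examined. For the strain difference these were 9 to 40 higher and 10 to 40 lower. Median centring gave 288 higher for the time difference and 16 higher for the strain difference, and an added constant of 1 gave 18 higher for the strain difference. The replicate numbers were not used as pairs in the main fit. Deviations of same-numbered samples correlated at 0.0123 to 0.216, and 1 of 5 correlated best with its own number. Such correlations cannot show whether same-numbered samples were handled together. With a replicate block the counts were 567 higher and 415 lower, 454 and 257 for the time difference, and 39 and 29 for the strain difference. Signal limits dim genes, since 13.6% of values were below the added 16.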
